A study of Mus musculus with 12 samples.

Results

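Wild-type (WT) mouse B cells cultured for 48 h with antibodies against IgM and CD40 were compared with WT B cells labelled untreated. The comparison rests on 5 of the 12 libraries of the series, chosen by their labels: 2 stimulated and 3 untreated libraries of poly(A) RNA from splenic B cells enriched by removing CD43-bearing cells with magnetic beads. Per the labels, RNA of untreated cells was taken after isolation and washing. Stimulated cells were grown in RPMI medium with 10% serum, anti-IgM at 10 µg/mL and anti-CD40 at 1 µg/mL. The other libraries were 3 untreated and 2 stimulated libraries of double-knockout (DKO) cells, in which Cre and loxP sites target Hnrnpa1 and Hnrnpa2b1 (the Cre line is not named in the labels), and 2 additional untreated WT libraries whose titles carry no genotype number. The labels name no transgene in the WT groups and no age. Whether each library is a different mouse is not stated, so the p-values reflect only how far these libraries spread, which may be technical. The number of 1 stimulated WT library differs between its label and the table, and it is called unnumbered here.

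A follicular B cell rests in the spleen until antigen crosslinks its B cell receptor, here imitated by anti-IgM, and a helper T cell engages CD40, here imitated by anti-CD40. The receptor acts through SYK, BTK and PLCγ2 to calcium, NFAT and NF-κB, and CD40 acts mainly through the non-canonical NF-κB branch. Activated B cells raise MYC, amino acid uptake, ribosome production and glycolysis, enter the cell cycle, and lose genes of quiescence such as Klf2 and S1pr1.

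Counts per library ranged from 16313942 to 19321253. Stimulation, time in culture and the table that holds the counts changed together, so their parts in any difference cannot be told apart. B cell identity was clear in all 5 libraries: each of 11 B cell markers was above 10 CPM (counts scaled by library size), and their summed level was 4307 to 4893 CPM in untreated and 7013 to 7573 CPM in stimulated cells. Untreated library 2 read as female (34544 Xist counts and no counts of 4 Y-linked genes), and the other 4 read as male. Library 2 is therefore not from the same animals as the others, and sex was not balanced between the groups. The part of sex in the results was not tested.

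The libraries labelled untreated did not read as resting cells. Myc, the growth regulator induced within hours of activation, was at 310.3, 415 and 325 CPM in untreated libraries 1, 2 and 3 and at 181 and 160.4 CPM in the stimulated library 1 and the unnumbered library. Il2ra, the interleukin 2 receptor chain of activated lymphocytes, stood at 217, 229.6 and 208 CPM in untreated and 125 and 137 CPM in stimulated cells. Both genes were thus higher in untreated libraries 1, 2 and 3 than in both stimulated ones, though the Il2ra call was lost without stimulated library 1. The proliferation gene Mki67 was expressed in untreated libraries, at 417, 234 and 349 CPM, but was higher in stimulated ones, at 1566 and 1571 CPM. The CD40-responsive chemokine gene Ccl22 likewise had 667, 416 and 583 CPM and, after stimulation, 1781 and 1782 CPM. Klf2, which keeps lymphocytes quiescent, was at 16, 13.4 and 14 CPM and was lower again in stimulated cells, at 5.84 and 7.23 CPM. S1pr1, the receptor for egress into blood, had 5.73, 5.73 and 4.28 CPM and 7.33 and 14.2 CPM, a rise that was lost without the unnumbered library. The additional untreated WT libraries were only partly alike in this. They had 259 and 264.5 CPM of Il2ra, 448 and 569 CPM of Mki67, 1004 and 1643 CPM of Ccl22 and 11.7 and 12.7 CPM of Klf2. The Myc difference was weaker against them. Btg1 and Fcer2a, genes of resting cells, were higher in them than in the numbered untreated libraries, at 859.6 and 1047 CPM and at 535 and 718 CPM. The groups are called untreated here only because their labels say so. How these cells were handled before lysis was not tested.

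**Figure D1:**
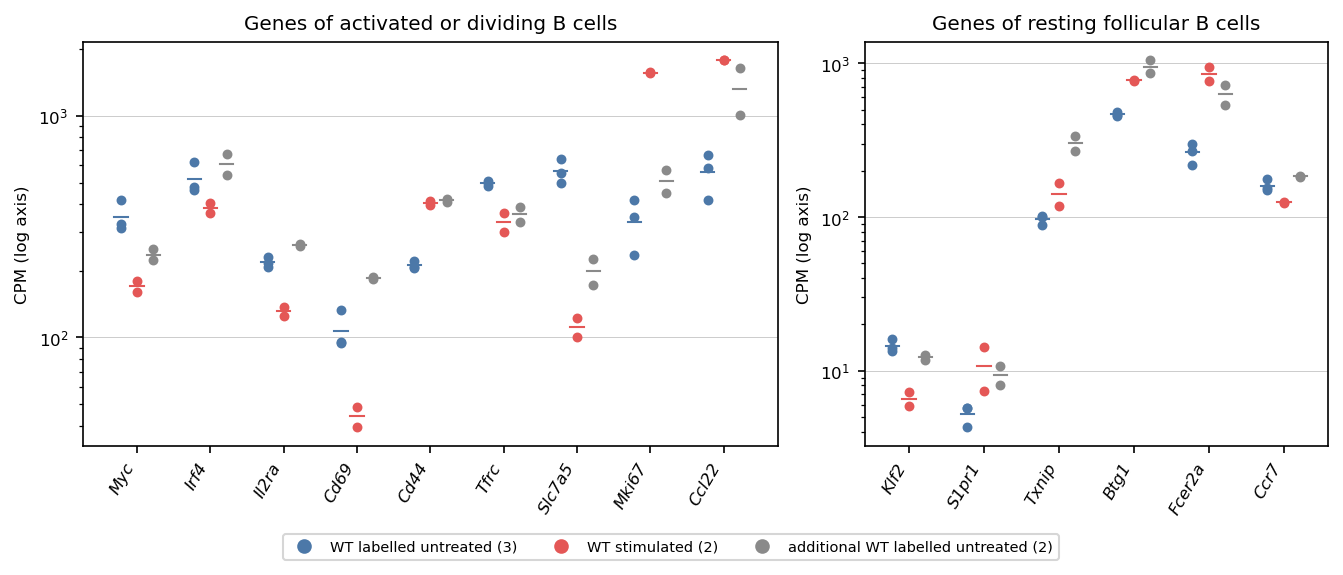
CPM (log axis) of 9 genes of activated or dividing B cells and 6 genes of resting follicular B cells, 1 point per library with the group mean as a bar, for 3 WT libraries labelled untreated, 2 stimulated and 2 additional WT libraries labelled untreated. Myc and Il2ra are higher in all 3 libraries labelled untreated than in both stimulated ones, and Klf2 is low in every library.

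A second feature of the tables bears on many genes. For some genes with near-identical pseudogenes, most counts lay at the pseudogenes in the untreated table and at the gene itself in the stimulated table. Pseudogenes took 2.19% to 2.33% of WT untreated counts and 0.961% to 0.984% of WT stimulated counts. Ppia, the abundant peptidyl-prolyl isomerase cyclophilin A, had 1020, 896 and 984 counts in untreated and 23946 and 20777 in stimulated libraries, while its 8 matched pseudogenes had 17463, 11893 and 15996 and 844 and 710 counts. The log2 change of Ppia alone was 4.52, and that of the gene and its pseudogenes summed was 0.52. Sumo2, a small protein modifier, went from 4.13 to 1.19 when its 4 pseudogenes were added, and Tpt1 from 2.67 to 1.12. Hnrnpa1 rose by 1.26 alone, but with its pseudogenes the change was 0.62 and did not pass the test (edgeR adjusted p = 0.12). Hnrnpa3 turned from 0.95 to -0.43. Of 334 called coding genes with a matched pseudogene, 281 kept their direction and call after summing and 18 changed sign. Ribosomal protein genes had no common direction, with 33 higher and 31 lower of 82. Rpl5 changed by 4.45 alone and by 2.05 with its pseudogenes, and Rps23 by 4.49 and 4.16, so summing left large rises in both. Values of such genes are uncertain, and any other gene named here that has a matched pseudogene kept its direction and call after summing. Galnt2 (1.01, 2.03 and 0.835 CPM against 38.1 and 41.2 CPM) and Atp5g2 (7.89, 9.14 and 7.37 CPM against 113 and 112 CPM) also differed greatly. Galnt2 has no matched pseudogene, and Atp5g2 changed by 3.79 alone and by 3.48 with its 2 matched pseudogenes. Summing cannot recover reads that were counted for neither, and whether reads were assigned differently was not tested.

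**Figure D2:**
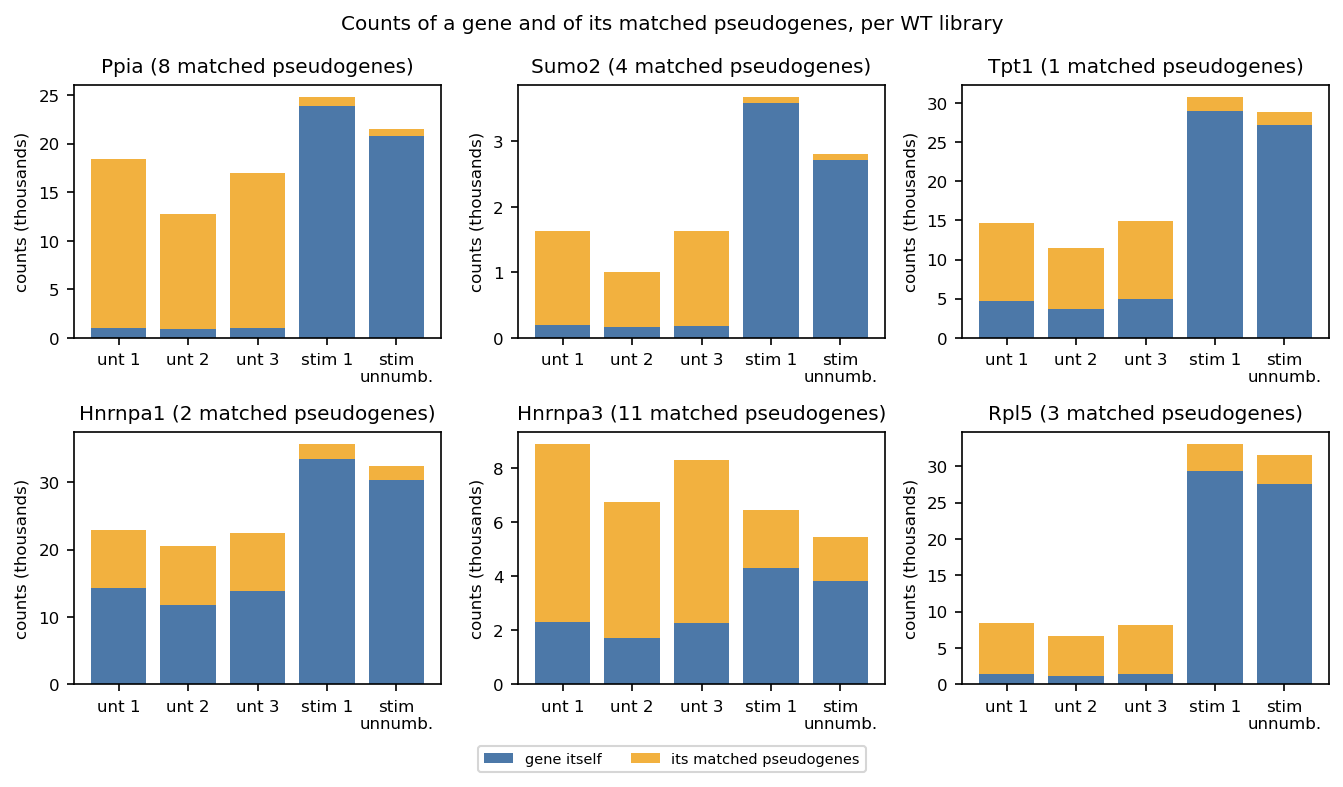
Stacked counts (axis in units of 1000 counts) of 6 genes and of their matched pseudogenes in each of the 5 WT libraries (unt, labelled untreated; stim, stimulated). In Ppia the pseudogenes hold most untreated counts and few stimulated ones, and the summed bars differ far less than the blue part alone.

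Of 15006 genes tested, 6097 passed an adjusted p of 0.05 in edgeR's quasi-likelihood test, which is 40.6% of them. Stimulated cells were higher in 2672 genes (17.8%) and lower in 3425 (22.8%), and the change was at least 1 on the log2 scale in 1256 (8.37%) and 1364 (9.09%). The values of untreated and stimulated libraries did not overlap in 66.9% of all tested genes, so that property alone marks no gene. Without the unnumbered stimulated library the count of called genes was 3557. Changes also followed gene length: the median log2 change was -0.37 in the 2375 shortest protein-coding genes and 0.14 in the 2373 longest. With an offset for length and GC content 23.8% of genes were higher and 20.1% lower. Without the offset the median was 0.10 in the 2374 protein-coding genes of lowest GC content and -0.21 in the 2373 of highest. Against the additional untreated WT libraries these GC medians were -0.23 and 0.46, and those of the same short and long genes were -0.02 and 0.04. Against them 21.3% of genes were higher and 23% lower, and 678 of the called genes passed in the opposite direction. Counts for the lists are therefore given against both sets of untreated libraries, which share the stimulated libraries. Each count is to be read beside the shares of all genes given above.

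Genes of the amino acid response were lower in stimulated cells. When amino acids are scarce or the endoplasmic reticulum is stressed, translation of the transcription factor ATF4 rises, and it induces amino acid synthesis, uptake and tRNA charging. All 22 tested genes of this list were lower in stimulated cells, against 22.8% of all genes, with a median log2 change of -2.42 where the median of all genes was -0.02. Against the additional untreated libraries 20 of 22 were lower (median -2.35; 23% of all genes). In DKO cells, where 16.2% of all genes were higher and 16.8% lower after stimulation, 22 of 22 were lower.

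Asns, which makes asparagine (ENSMUSG00000029752; GRCm39 chromosome 6, 7675169 to 7693254, minus strand), stood at 250.1, 245 and 250.1 CPM without and at 12.7 and 16.6 CPM with stimulation. Its log2 change was -4.09 ± 0.16 (± SE; edgeR adjusted p = 5.4e-09), and no library of one group came near the other. Psat1 and Psph act in serine synthesis. Psat1 went from 641, 620.5 and 598 CPM to 155 and 153 CPM, a change of -2.01 ± 0.11, and Psph changed by -1.82 ± 0.14. Cth, which makes cysteine, was at 107, 96.3 and 101 CPM in untreated libraries and at 2.67 and 5.5 CPM in stimulated ones. Trib3, a pseudokinase that restrains ATF4, had 72.7, 101 and 84.4 CPM and 1.33 and 5.12 CPM. Chac1, a glutathione-degrading enzyme, fell from 38.6, 59.3 and 48.4 CPM to 2.41 and 4.53 CPM, and Sesn2, a leucine sensor of the mTORC1 pathway, from 103, 145 and 123 CPM to 16.6 and 22.4 CPM. Atf4 itself changed by -1.79 ± 0.16 and Ddit3, the stress factor CHOP, by -1.37 ± 0.23 (edgeR adjusted p = 3.8e-06 and 0.00055). Eif4ebp1, an inhibitor of cap-dependent translation, was at 151, 154 and 156 CPM and 12.6 and 16 CPM.

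Aminoacyl tRNA synthetases, which load tRNAs with amino acids, moved the same way. Of 20 tested, 18 were lower and none higher (median -1.18), but only 10 were lower and 4 higher against the additional libraries. Cars was at 242, 246 and 247 CPM and 65.8 and 70.4 CPM, Sars at 481, 532 and 492 CPM and 142 and 146 CPM. Transporters followed: 16 of 21 were lower and none higher (median -0.78; 10 lower and 1 higher against the additional libraries). Slc7a5 and Slc3a2 encode the subunits of the leucine carrier LAT1. Slc7a5 had 499.5, 641 and 550.1 CPM in untreated and a mean of 112 ± 16.2 CPM (SD, n = 2) in stimulated libraries, and Slc3a2 had 349.8, 389 and 332 CPM and 85.5 and 88.6 CPM. The glycine carrier Slc6a9 was at 48.9, 63.6 and 48.6 CPM against 1.08 and 2.43 CPM, and the cationic amino acid carrier Slc7a3 at 61.4, 68.1 and 72 CPM against 1.33 and 2.75 CPM. Slc1a4, which carries alanine and serine, changed by -2.59 ± 0.15 (edgeR adjusted p = 1.2e-07).

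Serine and one-carbon metabolism feeds nucleotide synthesis. In that list 19 of 32 genes were lower and 5 higher, while against the additional libraries 4 were lower and 15 higher. Without the unnumbered stimulated library 11 were lower. Mthfd2, the mitochondrial folate enzyme, fell from 317, 306 and 301 CPM to 98.8 and 114 CPM and was at 301 and 354 CPM in the additional libraries. Shmt2, which moves the serine carbon into folate in mitochondria, was at 756, 859.8 and 779 CPM and 241 and 230.5 CPM but at 199 and 264 CPM in the additional libraries, level with the stimulated ones. Aldh1l2 had 37, 58.6 and 46.4 CPM and 1.44 and 2.37 CPM.

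The promoters of these genes are shown because the list is defined by 1 transcription factor. In the 250 bases before each start listed by RefSeq (GRCm38.p6), the ATF4 element TGATGNAA, on either strand, was found in 6 of the 20 listed genes with a promoter and in 3 of 13 tRNA synthetases, against 3.91% of all 27025 genes. Each window below is 80 bases, 5′ to 3′ in the direction of the gene, with every match in capitals.
Asns, chr6:7693210-7693289, minus strand: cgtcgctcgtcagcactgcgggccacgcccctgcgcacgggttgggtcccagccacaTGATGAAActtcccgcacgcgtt
Chac1, chr2:119351013-119351092, plus strand: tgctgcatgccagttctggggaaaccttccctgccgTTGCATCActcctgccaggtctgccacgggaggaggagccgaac
Slc7a11, chr3:50443617-50443696, minus strand: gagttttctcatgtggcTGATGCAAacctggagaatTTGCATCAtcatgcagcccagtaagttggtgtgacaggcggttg
Vldlr, chr19:27216784-27216863, plus strand: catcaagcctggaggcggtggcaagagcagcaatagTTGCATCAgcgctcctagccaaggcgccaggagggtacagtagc
Nupr1, chr7:126625537-126625616, minus strand: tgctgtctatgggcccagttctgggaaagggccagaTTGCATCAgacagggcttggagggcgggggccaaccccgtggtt
Pck2, chr14:55540127-55540206, plus strand: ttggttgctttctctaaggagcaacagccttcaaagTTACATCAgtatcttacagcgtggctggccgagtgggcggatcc
Aars, chr8:111033694-111033773, plus strand: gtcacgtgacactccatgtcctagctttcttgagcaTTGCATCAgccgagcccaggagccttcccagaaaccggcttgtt
Gars, chr6:55037921-55038000, plus strand: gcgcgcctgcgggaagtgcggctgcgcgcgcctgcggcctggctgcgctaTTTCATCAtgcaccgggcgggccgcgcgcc
Tars, chr15:11399659-11399738, minus strand: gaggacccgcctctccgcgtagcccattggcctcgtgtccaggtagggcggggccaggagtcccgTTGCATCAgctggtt
All 9 genes passed the test and were lower in stimulated cells than in the numbered untreated libraries. The Gars and Tars changes were weaker against the additional libraries. Slc7a11, the cystine carrier, holds 2 matches on opposite strands and changed by -2.56 ± 0.37. Pck2, which makes phosphoenolpyruvate in mitochondria, went from 279, 322 and 283 CPM to 51.6 and 70.2 CPM. A match describes the letters only.

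**Figure D3:**
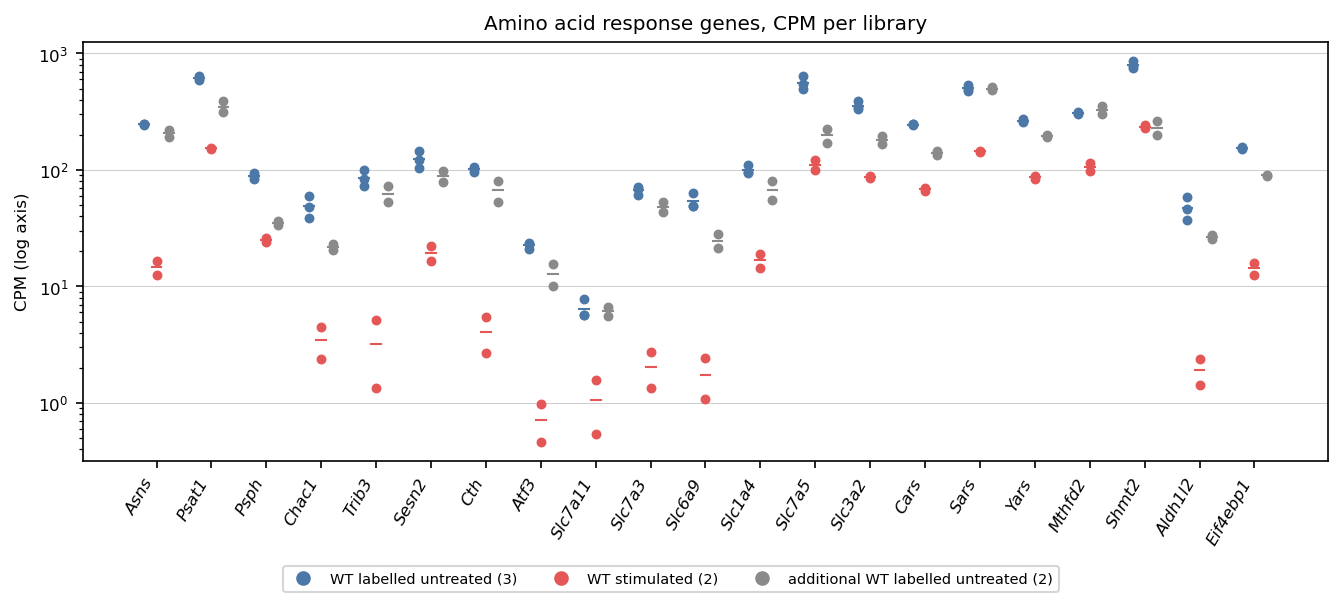
CPM (log axis) of 21 amino acid response genes, 1 point per library with the group mean as a bar, for 3 WT libraries labelled untreated, 2 stimulated and 2 additional WT libraries labelled untreated. Asns falls from about 250 CPM to under 20, and the additional libraries lie above both stimulated ones for each gene drawn except Shmt2.

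Nucleolar genes, which make and process ribosomal RNA, were lower in 37 of 40 and higher in none (median -0.76). Against the additional libraries the count turned to 16 higher and 7 lower (median 0.24), so the direction depends on which untreated libraries are used. Nop10, of the pseudouridylation complex, was at 144, 157 and 129 CPM and 42.9 and 42.6 CPM, and 54.3 and 70.1 CPM in the additional libraries. Ebna1bp2 had 192, 183 and 175 CPM and 76 and 58.7 CPM. Ncl, the abundant nucleolar protein nucleolin, fell from 3481, 3626 and 3191 CPM to 2500 and 1976 CPM and Npm1 from 2494, 2264 and 2232 CPM to 1964 and 1832 CPM, a change of -0.30 ± 0.10 that passed narrowly (edgeR adjusted p = 0.039) and was lost when any single WT library was left out. The E box CACGTG, which MYC binds, was in 2 of 34 promoters of this list and in 6.86% of all genes. Myc itself changed by -1.04 ± 0.18 (edgeR adjusted p = 0.0007), and its antagonist Mxd4 by 1.86 ± 0.13 (edgeR adjusted p = 9.3e-07), from 27.4, 31.7 and 35.8 CPM to 103 and 126 CPM.

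Translation factors gave 17 lower and 4 higher of 30 (8 higher and 11 lower against the additional libraries), and 11 lower without the unnumbered library. Among the 10 largest falls by CPM were genes of translation and protein folding. Hsp90ab1, a cytosolic chaperone, went from 6331, 6866 and 6140 CPM to 4032 and 3857 CPM, Hspd1, the mitochondrial chaperonin, from 1215, 1162 and 1162 CPM to 640.2 and 572 CPM, and Eif5a from 1524, 1505 and 1473 CPM to 1005 and 864 CPM. In the additional libraries Hsp90ab1 was at 4098 and 4428 CPM, Hspd1 at 496 and 544 CPM and Eif5a at 450.4 and 520.5 CPM. Against these libraries the Hsp90ab1 change did not pass (edgeR adjusted p = 0.53). Pdcd4, which inhibits the helicase eIF4A, moved the other way, from 57.6, 51.2 and 65.6 CPM to 167 and 172 CPM.

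Energy genes divided by genome. Nuclear-encoded respiratory chain subunits were lower in 33 of 40 (median -0.81), and 20 lower with 5 higher against the additional libraries. These are short genes, with a median exonic length of 1870 bases, and with length and GC content in the fit 24 were lower (median -0.32). Uqcrq, of complex III, had 180.4, 175 and 168 CPM against 29.1 and 28 CPM. Cox6a2, a complex IV subunit known from muscle, had 51.3, 52.5 and 52.7 CPM in untreated libraries, with 2973 counts in all, and 1 count over both stimulated libraries. That ratio is 1994 (95% exact interval 357.6 to 78785, counting error only), and the additional libraries had 57.2 and 57.6 CPM. Chchd10, a mitochondrial intermembrane protein, went from 123, 125 and 126 CPM to 4.72 and 5.12 CPM. Of 13 genes of the mitochondrial genome 8 were higher and none lower (median 0.83; 4 higher and 1 lower against the additional libraries). mt-Co1 rose from 7727, 8701 and 7583 CPM to 14519 and 12849 CPM but was at 16129 and 15782 CPM in the additional libraries.

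Glycolysis and hypoxia genes were lower in 11 of 27 and higher in 3 (5 higher and 14 lower against the additional libraries), and 6 were lower without stimulated library 1 and 7 without the unnumbered library. The 3 that rose were the glycolytic enzyme genes Pgk1, Gapdh and Pgam1, named after their values were seen. Pgk1 rose from 205, 107 and 186 CPM to 487 and 558 CPM, Pgam1 changed by 0.79 ± 0.22, and Gapdh changed by 1.77 alone and by 1.03 with its pseudogenes. The Pgam1 call was lost without either stimulated library. Hk2, which traps glucose in the cell, went from 186, 202 and 185 CPM to 88 and 69 CPM, and Pfkp from 661, 597 and 628 CPM to 211 and 206 CPM. Vegfa, a hypoxia-induced growth factor gene, fell from 89.2, 83.1 and 95.1 CPM to 3.69 and 11.3 CPM. Ldha was at 1447, 765 and 1252 CPM and 704 and 655 CPM, and untreated library 2 lay close to the stimulated ones. Its call (edgeR adjusted p = 0.03) was lost without either stimulated library or without untreated library 1 or 3. Cholesterol synthesis showed little change against the numbered libraries, with 7 of 27 higher (17.8% of all genes) and a median of 0.12. Yet 22 were higher against the additional ones (21.3% of all genes), with a median of 1.69. Idi1 was at 74.5, 71.4 and 73.1 CPM, 179.7 and 144 CPM and, in the additional libraries, 40.8 and 38.8 CPM. Only 2 of these genes were called higher without stimulated library 1.

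Mitotic genes were higher in stimulated cells. Of 40 genes of G2 and mitosis 38 were higher, against 17.8% of all genes, and only Pttg1, the securin gene, was lower (median 1.53), a call lost without either stimulated library or without untreated library 1. Against the additional libraries 30 were higher and none lower (median 1.18), and in DKO cells 39 were higher. In bulk RNA, fewer cells of a type and less RNA per cell cannot be told apart. Mki67 (ENSMUSG00000031004; GRCm39 chromosome 7, 135291513 to 135318090, minus strand) rose to 1566 and 1571 CPM, a change of 2.23 ± 0.32 (edgeR adjusted p = 0.00016). Untreated library 2 had the lowest values among untreated libraries, as it did for Cenpa, the centromeric histone, with 56.1, 24.7 and 45.8 CPM against 191 and 215 CPM. Cdc25b, the phosphatase that opens mitosis, was at 26.9, 16.4 and 25.3 CPM and 77.2 and 84.8 CPM, and Foxm1, a transcription factor of G2 genes, at 42.1, 24.3 and 37 CPM and 116 and 111 CPM. Kif23, a kinesin of cytokinesis, changed by 1.92 ± 0.24. For each of these genes both stimulated libraries exceeded every untreated one.

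DNA replication genes moved less: 8 of 40 were higher and 1 lower, where 17.8% and 22.8% of all genes were. Their median was 0.17, and 16 were higher and 1 lower against the additional libraries (21.3% and 23% of all genes). Fewer were called higher without either stimulated library in turn, and 5 without untreated library 2. Rrm1, a ribonucleotide reductase subunit, had 321, 217 and 283 CPM and 517 and 436 CPM. D cyclins drive entry into the cycle. Ccnd2, the main D cyclin of B cells, fell from 691, 735 and 557 CPM to 362 and 285 CPM (-1.03 ± 0.15; edgeR adjusted p = 0.00022), while Ccnd3 had 88.8, 53.8 and 88.5 CPM and 56.7 and 60.6 CPM and did not pass (edgeR adjusted p = 0.25). Cdkn1b, the brake p27, had 103, 87.5 and 99.8 CPM and 90.4 and 139 CPM (edgeR adjusted p = 0.25). Cdkn1a, the p53-induced brake p21 (ENSMUSG00000023067; GRCm39 chromosome 17, 29309950 to 29319701, plus strand), went from 44.7, 53.9 and 43.6 CPM to 1.44 and 2.21 CPM, a change of -4.70 ± 0.31 (edgeR adjusted p = 4.1e-07). The wider p53 list was mixed, with 7 higher and 9 lower of 24 (3 higher and 16 lower against the additional libraries), and 4 higher without the unnumbered library.

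Promoters of mitotic genes often carry CCAAT boxes, bound by NF-Y, and the cell cycle homology region, bound by the DREAM and MuvB complexes. In the 250 bases before the start, CCAAT on either strand was in 24 of 33 mitotic genes with a promoter (72.7%) and in 37.5% of all genes, and TTTGAA was in 11 of 33 (33.3%) and in 18.3%. The windows (GRCm38.p6) show 6 genes with TTTGAA, with both motifs in capitals.
Mki67, chr7:135716435-135716514, minus strand: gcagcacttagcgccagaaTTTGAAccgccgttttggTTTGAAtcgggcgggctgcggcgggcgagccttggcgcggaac
Top2a, chr11:99024190-99024269, minus strand: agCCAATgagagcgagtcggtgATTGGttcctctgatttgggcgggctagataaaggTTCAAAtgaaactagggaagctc
Cdk1, chr10:69352913-69352992, minus strand: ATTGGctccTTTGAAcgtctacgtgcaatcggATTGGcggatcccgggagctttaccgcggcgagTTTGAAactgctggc
Cdc20, chr4:118437344-118437423, minus strand: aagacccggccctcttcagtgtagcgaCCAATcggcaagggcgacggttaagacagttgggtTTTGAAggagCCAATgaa
Kif11, chr19:37376302-37376381, plus strand: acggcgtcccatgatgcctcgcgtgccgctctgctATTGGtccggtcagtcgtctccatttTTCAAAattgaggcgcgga
Ect2, chr3:27153950-27154029, minus strand: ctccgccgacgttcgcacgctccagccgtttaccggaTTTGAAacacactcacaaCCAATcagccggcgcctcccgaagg
Each of these genes was higher in stimulated cells, with log2 changes of 2.23, 1.36, 0.92, 1.52, 1.87 and 1.20 in that order, and the Cdk1 call was lost without stimulated library 1. The Top2a and Ect2 changes were weaker against the additional libraries. Mki67 holds TTTGAA without a CCAAT box in its window, as do Ccnb2 and Kif2c, whose windows are not shown.

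The BCL2 family, which holds survival and death genes, had 4 higher and 5 lower of 15, where 17.8% and 22.8% of all genes were. Against the additional libraries 2 were higher and 7 lower. Without the unnumbered library 2 were higher and 3 lower, without stimulated library 1 or untreated library 1 3 were lower, and without untreated library 3 2 were lower. The proapoptotic Bcl2l11 (BIM) rose from 92.4, 90.5 and 102 CPM to 192 and 194 CPM, while the proapoptotic Bbc3 (PUMA) fell from 21, 22 and 24.5 CPM to 2.97 and 4.04 CPM. The survival gene Mcl1 had 599, 482 and 594 CPM and 759 and 861 CPM, a call lost without the unnumbered library, and 873 and 867 CPM in the additional libraries. Bcl2 had 67.4, 58.6 and 66 CPM and 70.3 and 75.1 CPM and did not pass (edgeR adjusted p = 0.45), but it was at 334 and 284 CPM in the additional libraries. Genes of quiescence were higher in 14 and lower in 4 of 29, and the reverse against the additional libraries (2 higher, 14 lower). Without the unnumbered library 8 were higher. Btg1, an antiproliferative gene of resting lymphocytes, was at 481, 462 and 453 CPM, 772 and 774 CPM and, in the additional libraries, 859.6 and 1047 CPM. Txnip, which curbs glucose uptake, was at 99.7, 88.7 and 101 CPM, 118 and 166 CPM and 338 and 268 CPM, and its call was lost without the unnumbered library.

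**Figure D4:**
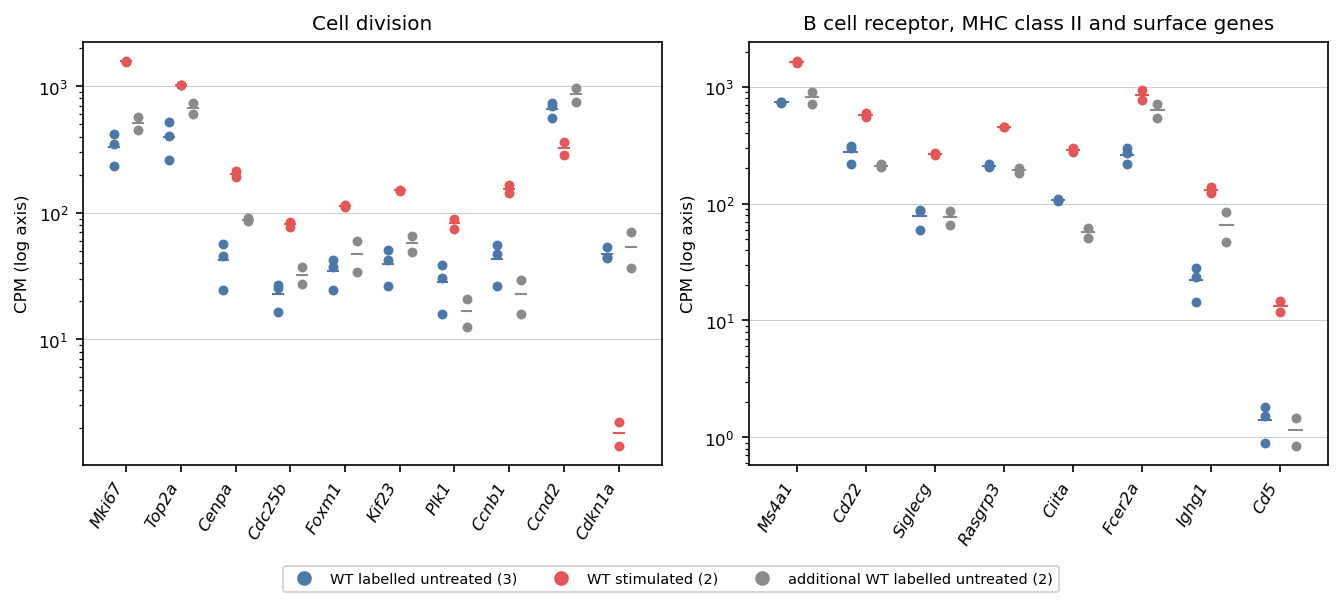
CPM (log axis) of 10 cell division genes and 8 genes of B cell receptor signalling, MHC class II and the surface, 1 point per library with the group mean as a bar, for 3 WT libraries labelled untreated, 2 stimulated and 2 additional WT libraries labelled untreated. Both stimulated libraries lie above all others for Mki67, Kif23, Ciita and Cd5, and below all others for Cdkn1a and Ccnd2.

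Immediate early genes, which respond within an hour of receptor engagement, were lower at 48 h. Of 23 tested 15 were lower and 1 higher (median -0.93), and 18 were lower against the additional libraries (median -2.05). Egr1, induced by receptor signalling through ERK, fell from 54.8, 84.9 and 65.5 CPM to 12.8 and 16.6 CPM. Jun was at 43.8, 33 and 27.2 CPM and 6.0 and 7.71 CPM. Atf3, a stress-induced factor, fell from 23.7, 23.3 and 20.9 CPM to 0.461 and 0.971 CPM, the largest relative fall of this list. Cd69, an early activation receptor that retains lymphocytes in tissue, went from 94.9, 132 and 94.3 CPM to 39.3 and 48.7 CPM, and Cd86, the costimulatory ligand, from 72.9, 56.1 and 59.1 CPM to 42.4 and 30.0 CPM, a call lost without the unnumbered library.

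NF-κB and CD40 target genes were split, with 3 higher and 11 lower of 30 (8 higher and 9 lower against the additional libraries). With the offset for length and GC content 8 were higher and 10 lower, and 7 were lower without the unnumbered library. Traf1, an adaptor of TNF receptors, fell from 264, 289.9 and 248 CPM to 134 and 124 CPM, and Nfkbia, the inhibitor IκBα, from 386, 395 and 386 CPM to 249 and 258 CPM. Nfkb2, which encodes p100 of the non-canonical branch, had 601, 621 and 593 CPM and 618 and 618 CPM and did not pass (edgeR adjusted p = 0.87). Ccl22, which attracts T cells, rose to 1781 and 1782 CPM (1.68 ± 0.21; edgeR adjusted p = 6.2e-05). Cytokine genes were lower in 12 of 22 (median -1.54; 0 higher and 11 lower against the additional libraries). Il6 fell from 31.1, 46.8 and 32.3 CPM to 1.49 and 2.48 CPM and was at 82.4 and 81.7 CPM in the additional libraries. Il12b, a subunit of interleukins 12 and 23, was at 7.04, 11.6 and 5.31 CPM and 0.923 and 0.378 CPM.

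Interferon-stimulated genes were lower in 20 of 36 and higher in none (median -1.30). The count was 6 without the unnumbered stimulated library and 12 without untreated library 1, and against the additional libraries 5 were lower and 3 higher (median 0.11). Isg15, a ubiquitin-like modifier (ENSMUSG00000035692; GRCm39 chromosome 4, 156283912 to 156285253, minus strand), was found at 61.4, 37.9 and 42.9 CPM without stimulation, 2.51 and 0.863 CPM with it, and 13.9 and 16.8 CPM in the additional ones. It has 1 matched pseudogene, and the change was -4.79 alone and -3.94 with it. Bst2, which tethers budding viruses, fell from 118, 86.7 and 85.4 CPM to 12.3 and 7.93 CPM. Ifit1, a sensor of foreign RNA, was at 14.1, 11.5 and 11.2 CPM, 1.69 and 0.431 CPM and, in the additional libraries, 1.49 and 0.609 CPM. Apol7c, an interferon-inducible apolipoprotein gene, had 79.7, 62.4 and 59 CPM and 2.72 and 1.56 CPM, and the additional libraries, at 1.75 and 2.8 CPM, were level with the stimulated ones. Genes of MHC class I and peptide loading were lower in 8 of 19 and higher in none, but the count turned to 6 higher and 3 lower against the additional libraries. Leaving out 1 library gave 4 to 10 lower, with 4 without the unnumbered library and 5 without stimulated library 1 or untreated library 1. B2m, the invariant class I chain, fell from 1973, 1762 and 1616 CPM to 991 and 864 CPM.

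The interferon element (GAAA, any 2 bases, then GAAA), on either strand, was in the 250 bases before the start of 12 of 26 interferon-stimulated genes with a promoter (46.2%), against 3.46% of all genes. The 6 windows shown (GRCm38.p6) are of genes that passed the test, with matches in capitals and overlapping matches merged.
Isg15, chr4:156200840-156200919, minus strand: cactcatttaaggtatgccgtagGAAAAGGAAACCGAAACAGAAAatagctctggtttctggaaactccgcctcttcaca
Bst2, chr8:71537552-71537631, minus strand: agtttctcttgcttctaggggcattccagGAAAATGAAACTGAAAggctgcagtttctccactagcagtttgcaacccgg
Ifit1, chr19:34640769-34640848, plus strand: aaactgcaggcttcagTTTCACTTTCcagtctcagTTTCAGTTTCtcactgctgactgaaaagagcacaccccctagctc
Ifit3, chr19:34583372-34583451, plus strand: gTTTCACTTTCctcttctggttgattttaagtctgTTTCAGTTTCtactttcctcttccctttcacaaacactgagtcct
Rsad2, chr12:26456528-26456607, minus strand: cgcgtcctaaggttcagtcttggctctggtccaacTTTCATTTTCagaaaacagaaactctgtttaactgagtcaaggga
Gbp2, chr3:142620569-142620648, plus strand: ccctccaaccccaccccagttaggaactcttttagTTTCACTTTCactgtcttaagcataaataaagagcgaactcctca
Their log2 changes were -4.79, -3.25, -3.51, -1.99, -4.27 and -1.28 in that order. The Ifit3 call was lost without the unnumbered library or untreated library 1 or 3, and the Gbp2 call without either stimulated library or untreated library 1. Gbp7 and Stat2 hold the motif too, but their changes were -0.18 and 0.20 and did not pass (edgeR adjusted p = 0.71 and 0.51).

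Many B cell receptor signalling genes rose. Of 32 tested, 17 were higher and none lower (median 0.43), and against the additional libraries 19 were higher and 1 lower. Without the unnumbered library 11 were higher. Rasgrp3, which links diacylglycerol to RAS, rose from 220.0, 204 and 209 CPM to 448 and 449 CPM. Ms4a1, which encodes CD20, had 740.4, 718 and 741 CPM and 1607 and 1648 CPM (1.15 ± 0.11; edgeR adjusted p = 6.1e-06). Inhibitory receptors rose beside them, in 10 of 18 with 1 lower (9 higher and 4 lower against the additional libraries). Siglecg, a sialic acid receptor that dampens calcium signals, went from 86.6, 59.8 and 88.4 CPM to 259.5 and 272 CPM, and Cd22 from 309.8, 219.7 and 301 CPM to 545 and 596 CPM. Cd5, a brake on receptor signalling and a B1 cell marker, rose from 1.81, 0.896 and 1.52 CPM to 14.7 and 11.9 CPM and was at 0.843 and 1.46 CPM in the additional libraries.

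The list of MHC class II and related genes also rose, with 14 of 19 genes higher and 2 lower (median 0.88). Against the additional libraries 10 were higher and 2 lower. The 14 include Marchf1 and Cd180, which do not themselves present antigen. Ciita, the master regulator of MHC class II genes, went from 108, 105 and 109 CPM to 298 and 277 CPM and was at 51.1 and 62.3 CPM in the additional libraries. H2-Ob, which tunes peptide loading in B cells, rose by 1.77 ± 0.26 (edgeR adjusted p = 0.00019), although its change against the additional libraries was -0.05. H2-Aa was at 928, 768 and 816 CPM and 1636 and 1494 CPM.

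Genes of naive follicular cells were higher in 11 and lower in 3 of 20, but 5 higher and 7 lower against the additional libraries. Without the unnumbered library 5 were higher. Fcer2a, which encodes CD23 (ENSMUSG00000005540; GRCm39 chromosome 8, 3731737 to 3744175, minus strand), rose from 269.5, 218 and 300.3 CPM to 769 and 940.5 CPM, with 535 and 718 CPM in the additional libraries. Cxcr5 and Ccr7, which position B cells towards follicles and the T zone, did not pass, at 161, 147 and 155 CPM against 147 and 140.0 CPM and 175, 149 and 154 CPM against 123 and 126 CPM (edgeR adjusted p = 0.67 and 0.1).

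Genes of class switching and of later B cell stages were mixed. Ighg1, the IgG1 constant gene whose germline transcript precedes switching, rose from 28.1, 14.4 and 23.7 CPM to 137 and 123 CPM (2.56 ± 0.20; edgeR adjusted p = 1.4e-06). Igha was at 4.27, 3.7 and 3.83 CPM in untreated libraries and at 55.6 and 3.67 CPM in stimulated ones, so the call rests on stimulated library 1 and was lost without it. Among germinal centre genes 7 of 20 were higher and 2 lower, but 3 higher and 7 lower against the additional libraries, and 4 were higher without the unnumbered library. Bcl6, the germinal centre regulator, fell from 19.9, 23.6 and 22.4 CPM to 9.43 and 14.8 CPM, a call lost without stimulated library 1. Prdm1, which drives plasma cell fate, fell from 13.1, 12.6 and 8.06 CPM to 3.54 and 4.8 CPM with the same dependence. Irf4 had 462, 618 and 479 CPM and 404 and 365 CPM, and Bach2, which holds back plasma cell fate, had 158, 188 and 171 CPM and 186 and 186 CPM (edgeR adjusted p = 0.027 and 0.62). The Irf4 call was lost without either stimulated library or without untreated library 2. Zbtb20, known from plasma cells, rose from 31.8, 37.7 and 34.9 CPM to 118 and 124 CPM but was at 206 and 142 CPM in the additional libraries.

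Some of the largest rises were outside these lists. Dmxl2, a regulator of the vacuolar proton pump, went from 2.92, 2.75 and 2.75 CPM to 41.8 and 39.3 CPM, and Nxpe2 from 10.8, 9.85 and 12.4 CPM to 114 and 117 CPM. Rgs9bp was at 3.87, 3.34 and 3.05 CPM and 61.7 and 60.6 CPM, with 21.9 and 29.9 CPM in the additional libraries. Ksr2, a scaffold of RAF kinases, rose from 2.51, 2.87 and 3.98 CPM to 30.9 and 23.8 CPM, and Myo1f, a membrane-bound myosin, from 6.24, 3.76 and 3.93 CPM to 33.1 and 35.1 CPM. Ccr1, a chemokine receptor gene, had 13.8, 10.1 and 12.8 CPM against 82 and 93.5 CPM, and the lipase gene Lpl had 4.27, 1.25 and 1.57 CPM against 20.9 and 14.8 CPM. Among falls outside the lists, Soat2, which esterifies cholesterol, had 16.3, 24.2 and 21.1 CPM against 0.615 and 0.216 CPM. Hnrnpa2b1, a target of the knockout, was at 1950, 1736 and 1859 CPM and 1801 and 1746 CPM and did not pass (edgeR adjusted p = 0.84).

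**Figure D5:**
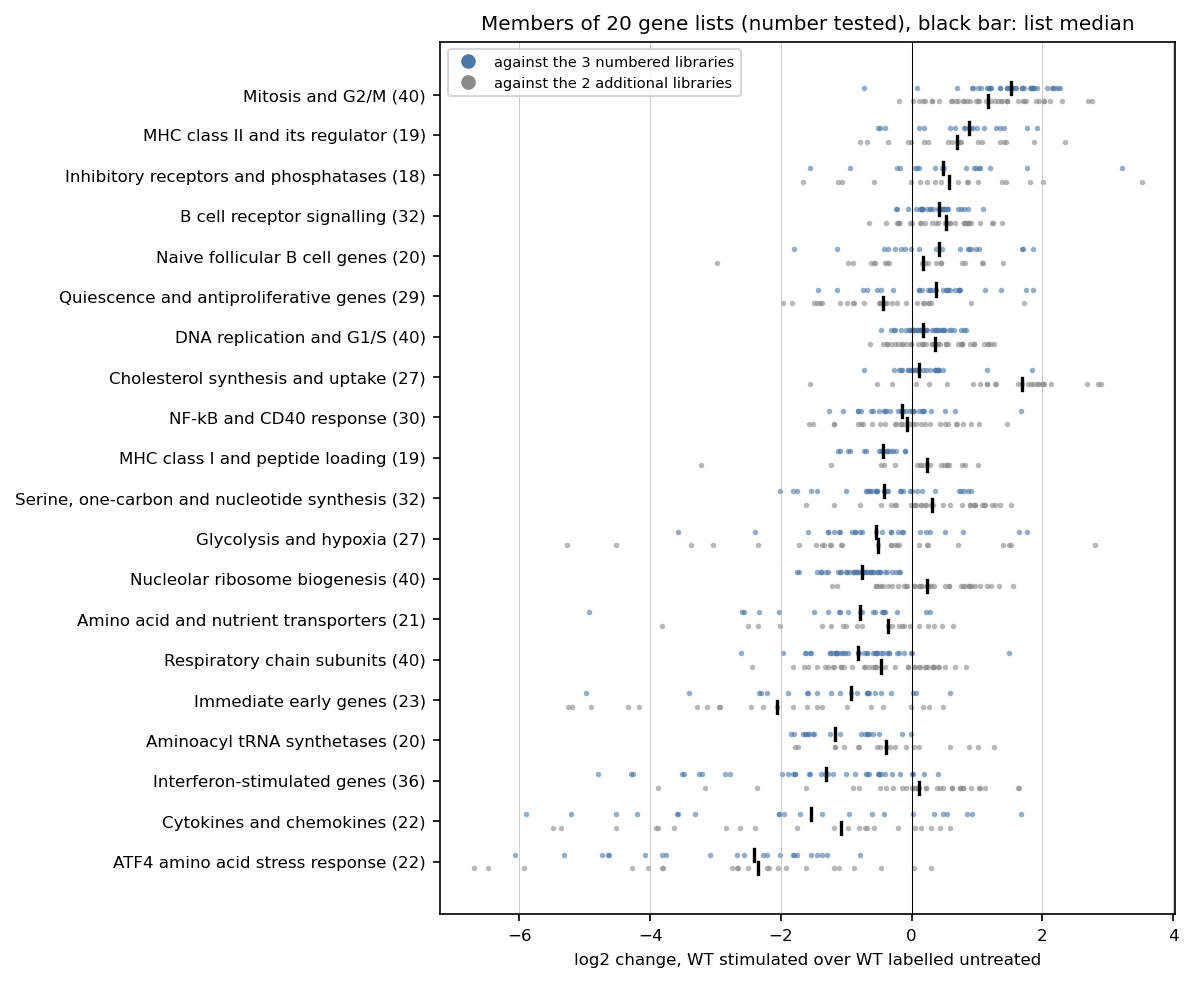
Log2 change of each tested member (points) and the median (black bar) of 20 gene lists, against the 3 numbered (blue) and the 2 additional (grey) untreated WT libraries, which share the stimulated libraries. The ATF4 list lies low and the mitosis list high against both, while the medians of nucleolar, interferon and quiescence genes have opposite signs.

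Most markers of other cells were low. Neutrophil, platelet and erythroid lists summed to at most 32.4 CPM in any of the 5 libraries, and the defining T cell and NK cell genes other than Lck, Cd5, Cd2, Il2rb and Prf1 stayed near or under 2 CPM. T cell markers summed to 97.95 to 128.1 CPM in untreated and 190.3 to 210.6 CPM in stimulated libraries, of which Lck, also active in activated B cells, made 96.3, 72.7 and 89.5 CPM and 173 and 152 CPM. Dendritic cell markers summed to 149.0 to 204.6 CPM and 53.24 to 57.29 CPM, carried mainly by Bst2, Zbtb46 and Flt3. The monocyte and macrophage list summed to 90.97 to 101.5 CPM and 73.26 to 89.27 CPM. Stromal and endothelial markers summed to 54.92 to 76.58 CPM and 109.6 to 123.5 CPM, nearly all from Pecam1, and NK cell markers to 8.695 to 14.27 CPM and 8.323 to 8.423 CPM. Their part in the results was not tested.

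The response was also set against that of DKO cells, whose untreated and stimulated libraries come from the same pair of tables. Of 15006 genes 21 (0.14%) differed in their response by the interaction test, 20 of them with a lower value in WT. Cdkn1a changed by -4.70 ± 0.31 in WT and -0.76 in DKO cells, a difference of -3.93 ± 0.38 (edgeR adjusted p = 0.0025). The count depended on single libraries: it was 1244 without stimulated DKO library 2 and 1 without the unnumbered stimulated WT library.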

How the data were processed

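RNA-seq libraries of splenic B cells were analysed from the gene counts that the authors deposited, in 1 table for untreated, 1 for stimulated and 1 for additional WT cells. Per the submitters' processing notes, FastQC 0.10.1, cutadapt 1.9.1, HISAT2 2.2.1, HTSeq 0.6.1 and GRCm39 were used. Strand setting: not given in the sources used here. Overlapping and antisense genes are therefore uncertain, and the annotation release is likewise unknown. The 12 deposited columns of FPKM were not used, and exonic gene lengths were used for length only.

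Tables were joined by gene identifier (55349 genes in the untreated and stimulated tables). Counts of 10 libraries in 4 groups were fitted by the quasi-likelihood method of edgeR 4.0.16 (R 4.3.3) after TMM scaling and filterByExpr (min.count 10, min.total.count 15), leaving 6 residual degrees of freedom, with Benjamini-Hochberg adjustment over all 15006 tested genes and a threshold of 0.05. The standard error is the absolute log2 change over the square root of F. CPM use TMM sizes; marker sums use plain totals. The fit was tested on simulated data. Replicate libraries differed by far more than sampling noise (chi-square per degree of freedom 7.63 to 25.2), so none was counted as a duplicate.

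Genes named are fixed genes of B cell activation, the 15 largest log2 changes (non-overlapping groups, mean of at least 10 CPM) and 10 largest CPM changes in each direction among called coding genes, up to 4 called members per list by p, and up to 5 genes per direction that differ between WT and DKO; other list members were named after their values were seen. Members and lists were chosen with earlier results of these data known. Pseudogenes were matched to GENCODE M21 coding transcripts with BLAST 2.17.0 (at least 90% identity over 50% of the pseudogene). Pseudogenes and ribosomal protein genes were left out of rankings. Alternatives were other scalings, DESeq2 1.42.0, other filters, a minimum log2 change of 1, WT libraries alone, each library left out, the replicate number as a block and the additional WT libraries. Summing of pseudogenes and an offset for length and GC content were added after the data were seen, as was the block with the numbers of the labels. Some genes are not reported here.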

Additional observations from a re-analysis of the deposited data

Results flagged for a closer look

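Genes whose response to stimulation differed between WT and DKO cells by the test of the difference itself (edgeR interaction term) are given here with the log2 change in each genotype. Cdkn1a differed by -3.93 (-4.70 in WT, -0.76 in DKO). Tnfrsf8, which encodes the TNF receptor family member CD30, differed by -2.74 (-2.88 and -0.14). Phlda3, a p53 target, differed by -3.07 (-2.19 and 0.88). Col27a1 differed by -3.00 (-1.59 and 1.41), and Serpine2 by -3.19 (-0.66 and 2.52). Nlrc3 was the single gene with a higher response in WT, by 1.51 (1.64 and 0.13).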

How the results depend on the processing

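Other scalings, DESeq2, other filters and WT libraries alone kept the count of 6097 called genes within 1.5 times. It was 2437 (1068 higher, 1369 lower) with the additional WT libraries counted among the untreated ones, and 999 (418 higher, 581 lower) when tested against a log2 change of 1. Leaving out 1 library gave 3557 to 5435 genes (1568 to 2416 higher, 1989 to 3019 lower), the lowest without the unnumbered stimulated library. Genes that differed between WT and DKO numbered 21, 174 with DESeq2, and 1 to 1244 without 1 library. With the additional libraries in place of the numbered ones, log2 changes turned to -0.30 for Btg1, 0.14 for Ebna1bp2, 0.95 for Eif5a, -0.054 for H2-Ob, 0.23 for Hspd1, 0.036 for Ifit1, 0.79 for Ifit3, -0.10 for Mcl1, -0.27 for Pdcd4, 0.019 for Pttg1, 0.033 for Shmt2, -1.09 for Txnip, -0.52 for Zbtb20 and -0.22 for mt-Co1. With both sets together it was -0.31 for Txnip. A further 24 named genes kept their direction but were weaker with the additional libraries in place of the numbered ones. Among them were Apol7c, Bcl2l11, Ccl22, Cd2, Ect2, Fcer2a, Gars, Gbp2, Hnrnpa1, Hnrnpa3, Hsp90ab1 and Il12b. Il6ra, Lck, Ldha, Mbnl1, Myc, Npm1, S1pr1, Tars, Tlr1, Top2a, Tpt1 and Traf1 were the others. Hnrnpa3 was -0.43 with its pseudogenes, because their counts fell as the gene's rose. Igha ranged from -0.090 to 3.81 without 1 library. The cause of the other changes was not tested. With the replicate number as a replicate block, 4304 genes (1807 higher, 2497 lower) passed and 13 differed between WT and DKO, using the numbers of the table columns. With the numbers of the labels, chosen after seeing the data, these were 3788 (1568 and 2220) and 10. Nothing shows that the numbers pair the samples: deviations of same-numbered WT libraries correlated at 0.03 to 0.102 over genes by the columns and at -0.052 to 0.03 by the labels. By the labels, number 2 joins untreated library 2, which read as female, to the unnumbered stimulated library, which read as male. These 2 libraries are therefore not from the same mouse. No named gene changed direction in either fit. With 2 stimulated libraries, stimulation, culture and table cannot be told apart, and genes with few counts rest on counting error.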

Other observations

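Other lists showed smaller or mixed changes, to be read beside the 17.8% higher and 22.8% lower of all genes. Endoplasmic reticulum chaperones and genes of the unfolded protein response were lower in 15 of 27 and higher in 2, but 8 higher and 4 lower against the additional libraries. Without the unnumbered library 9 were lower. In this list was Manf, a secreted stress protein, at 153, 138 and 137 CPM against 71.5 and 64.9 CPM. Toll-like receptor genes were higher in 6 and lower in 2 of 21 (8 higher and 3 lower against the additional libraries). The higher count was 2 without stimulated library 1 and 3 without the unnumbered library or untreated library 2. Tlr1, a receptor for bacterial lipoproteins, rose from 37.6, 32.6 and 39.4 CPM to 107 and 114 CPM. Among marginal zone genes 7 of 16 were lower and 4 higher (2 higher and 5 lower against the additional libraries), with 4 lower without the unnumbered library. They include Dtx1, a Notch target, from 67.5, 79.6 and 67.3 CPM to 24.3 and 31.4 CPM, while Cd36, a lipid receptor, rose from 30.4, 28.1 and 24.7 CPM to 103 and 85.2 CPM. Cytokine receptor chains were higher in 7 of 23 and lower in 2 (8 higher and 3 lower against the additional libraries), and Il6ra, the receptor for interleukin 6, rose from 8.45, 7.88 and 8.3 CPM to 29.2 and 24.4 CPM.

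SR proteins and splicing regulators were higher in 6 and lower in 3 of 29, where 17.8% and 22.8% of all genes were, and 2 higher and 5 lower against the additional libraries. Without the unnumbered library 2 were higher and none lower. Mbnl1, a regulator of alternative exons, rose from 398, 463 and 394 CPM to 719.8 and 704 CPM and was at 688 and 732 CPM in the additional libraries. Taf15, of the FET family of RNA-binding proteins, fell from 391, 475 and 396 CPM to 215 and 212 CPM, and Hnrnpa0 fell from 446, 402 and 445 CPM to 265 and 232 CPM. Lysosome and autophagy genes were higher in 6 and lower in 7 of 30 (12 higher and 5 lower against the additional libraries), and 4 were lower without stimulated library 1 or untreated library 3. In this list was Laptm5, which lowers surface B cell receptor, at 277, 267 and 278 CPM against 535 and 526 CPM.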
